A study of Mus musculus with 3 samples.

Results

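The cells described here are sorted lymph node dendritic cells that bound much antibody against CD301b and little against CD11b, and they are called tag-high cells below. They were chosen from antibody and mRNA counts. A tag-high cell held 50 or more unique molecular identifiers (UMIs, each 1 captured molecule) of the CD301b tag, fewer than 150 of the CD11b tag and fewer than 120 of the CD8a tag. It also held fewer than 5 UMIs of Tnfsf4 mRNA, which encodes the costimulatory ligand OX40L, and fewer than 5 of the complement genes C1qa, C1qb and C1qc together. Of 5019 kept cells, 590 met these criteria, or 11.8% (exact 95% interval 10.9% to 12.7%). The tag values below are therefore a description of how the cells were chosen.

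The cells came from lymph nodes that drain the ear of mice that carried 3 alleles: SiglechiCreTg/0, then ROSA26LoxP-STOP-LoxP-RFP, and Tnfsf4KI/+. Every group had this genotype. In this line the Siglech gene, which plasmacytoid dendritic cells express, drives Cre, and RFP marks a cell in which Cre has acted, or whose precursor had it; BFP reports Tnfsf4 from 1 altered copy. All mice received MC903, a vitamin D analogue that inflames skin, on days 0, 2 and 4, and cells were sorted on day 5, so no untreated cells enter any comparison. The sort gate was B220-negative, MHC class II high, CD11c low to intermediate, XCR1-negative and CD326-negative, which was meant to leave out Langerhans cells and type 1 conventional dendritic cells. The 4 sorted populations were double-positive BFP+RFP+ cells, single-positive BFP-RFP+ and BFP+RFP- cells, and double-negative BFP-RFP- cells; lists of 4 values below keep this order. Each got its own hashtag antibody before all were mixed and captured together. How many mice were pooled, and their age and sex, is not stated in the labels.

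Each population was 1 sample in 1 capture. No test between populations was possible, no p-value is given, and every interval is an exact 95% interval for counting error only. The matrix held 6079 barcodes. A kept cell had 80% or more of its hashtag UMIs from 1 hashtag, 500 or more genes, 1000 or more mRNA UMIs and at most 10% mitochondrial UMIs. The tag-high cells held a median of 13900 mRNA UMIs and the other kept cells 14710. No barcode name occurred more than once. The 655 barcodes that carried 2 hashtags imply about 276 undetected doublets of 2 cells with 1 hashtag, or 5.50% of kept cells, which could not be removed.

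CD301b is the surface lectin MGL2, encoded by Mgl2. It binds sugars that end in galactose or N-acetylgalactosamine, and in mouse skin it marks dermal dendritic cells of the CD11b-positive type 2 class. When allergens reach the skin, such cells migrate to the draining node along CCR7 ligands and are known for helping T cells to become type 2 helper cells. CD11b is the integrin chain encoded by Itgam, CD172a the inhibitory receptor encoded by Sirpa, and CD8a the receptor chain encoded by Cd8a.

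The antibody counts rest on short DNA oligos attached to the antibodies, and the oligos are shown because the choice of cells depends on telling them apart. Capitals mark the bases from the 5′ end that the CD301b oligo shares with the oligo of Hashtag 3, which labelled BFP+RFP- cells.
CD301b: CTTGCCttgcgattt
Hashtag 3: CTTGCCgcatgtcat
CD11b: tgaaggctcatttgt
CD8a: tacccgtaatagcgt
CD172a: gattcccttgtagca
The CD301b and Hashtag 3 oligos share their first 6 bases and differ at 7 of 15 positions. The CD11b, CD8a and CD172a oligos differ from the CD301b oligo at 12, 12 and 10 positions, and the oligos of Hashtags 1, 2 and 4 at 12, 11 and 11. Of BFP+RFP- cells, which carried Hashtag 3, 26.1% held 50 or more CD301b UMIs. The shares were 12.2% in BFP+RFP+, 30.3% in BFP-RFP+ and 43.9% in BFP-RFP- cells. Whether any Hashtag 3 molecules were counted as CD301b was not tested. The labels name 3 oligo formats, TotalSeq-A for CD11b, CD8a and the hashtags, TotalSeq-C for CD172a and TotalSeq-B for CD301b. Whether the format changes the counts was not tested, and levels of different tags are not compared.

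The CD301b tag formed a continuous range with no gap at the limit. In tag-high cells it ran from 50 to 3808 UMIs with a median of 98.5. Just outside the limit, 82 cells that met all other criteria held 45 to 49 UMIs, and just inside it 54 held 50 to 54. Barcodes with 10 or more UMIs of T cell genes, which should lack CD301b, had a median of 25 CD301b UMIs and a 90th percentile of 78.2 (n = 229). Barcodes with 10 or more UMIs of B cell genes had a median of 23 and a 90th percentile of 53.5 (n = 88). The lowest tag-high cells thus lie within the range of these barcodes. Some of those barcodes may also hold a dendritic cell, and how many was not tested.

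**Figure D1:**
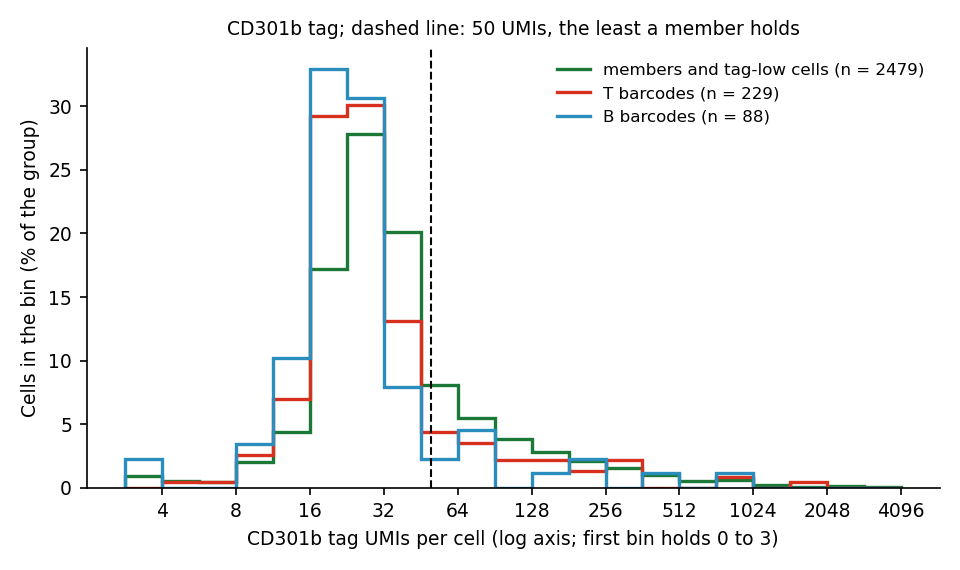
CD301b tag UMIs per cell on a log axis, as a percent of each group, for the tag-high cells together with cells that met all other criteria but held fewer than 50 UMIs (n = 2479), for T barcodes (n = 229) and for B barcodes (n = 88). The dashed line is the limit of 50 UMIs, and the counts run through it with no second peak.

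The other tags showed what the limits left. The CD11b tag ran from 4 UMIs up to the limit in tag-high cells with a median of 32, and 16 of them held 140 or more while 13 cells just outside held 150 to 159. The CD172a tag, which was not used to choose the cells, had a median of 180.5 UMIs in tag-high cells (17 to 1139), 84 in all other kept cells, 67 in cells that missed only the CD301b limit and 202 in cells that missed only the CD11b limit. The latter 2 groups serve as comparisons below: 1889 tag-low cells, with fewer than 50 CD301b UMIs, and 375 CD11b-high cells, with 150 or more CD11b UMIs. Over the 590 tag-high cells the CD301b and CD172a tags had a Spearman correlation of 0.38. Both tags share a library and a cell's capture efficiency: CD172a correlated with the hashtag total at 0.52, and CD301b at 0.13.

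Migratory and class II genes were found in nearly all tag-high cells and nearly all other kept cells, and Mgl2 in few tag-high cells. Ccr7, the receptor that brings dendritic cells to the node, was found in 583 of 590 tag-high cells. After each cell was thinned to 5000 UMIs, which left 555 cells, Ccr7 was found in 95.9% of them, the actin bundler Fscn1 in 98.7%, the invariant chain gene Cd74 in 100% and the MHC class II gene H2-Aa in 92.4%. Mgl2 itself gave 243 UMIs in 25 of 590 cells, and 5 cells held 83.1% of them. By population its UMIs numbered 0 in BFP+RFP+, 171 in BFP-RFP+, 10 in BFP+RFP- and 62 in BFP-RFP- cells. At matched depth 2.16% of tag-high cells held an Mgl2 UMI, as did 3.90% of T barcodes, 4.08% of B barcodes, 1.32% of tag-low and 5.79% of CD11b-high cells. The share is thus not above that of the lymphocyte barcodes. Those barcodes are an imperfect background, since 66.8% of thinned T and 59.2% of thinned B barcodes held a Ccr7 UMI. Unthinned shares were 4.24% in tag-high cells, 6.55% in T and 5.68% in B barcodes at median depths of 13900, 9515 and 5305 UMIs. Summed over cells Mgl2 stood at 28.3 CPM in tag-high, 4.97 in tag-low and 41.9 in CD11b-high cells, a log2 difference of 2.504 (2.18 to 2.84) over tag-low cells that rests on the few cells above. The name used here refers to the bound antibody tag.

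A small set of cells did carry lectin mRNA. This set was defined after its values were seen. Clec10a, the closest relative of Mgl2, gave 63 UMIs with 85.7% in 5 cells. Cd209a and Cd209d, C-type lectins of the DC-SIGN family, gave 220 and 258 UMIs, with 99.1% and 90.7% in 5 cells. In all, 9 tag-high cells (1.53%) held 5 or more UMIs of the 4 lectins together, 5 of them BFP-RFP+ and 4 BFP-RFP-. The same was true of 7 tag-low cells (0.371%) and 14 CD11b-high cells (3.73%). Over all kept cells, 4.31% of those with 50 or more CD301b UMIs were such cells, against 0.749% of those below. Itgam mRNA gave 2 UMIs in all tag-high cells and was scarce in CD11b-high cells too, with 21 UMIs in 9 of 375 cells. Cd8a gave 54 UMIs in 35 cells, and Sirpa 893.

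The share of tag-high cells differed between the 4 populations by more than counting error. It was 3.45% in BFP+RFP+ cells (29 of 841, 2.32% to 4.91%) and 13.3% in BFP-RFP+ cells (131 of 982, 11.3% to 15.6%). It was 9.52% in BFP+RFP- cells (208 of 2184, 8.32% to 10.8%) and 21.9% in BFP-RFP- cells (222 of 1012, 19.4% to 24.6%). Within each RFP state the BFP-negative population held the larger share, and within each BFP state the RFP-negative population did. BFP reports Tnfsf4, and a Tnfsf4 limit is part of the definition, so the share was also taken among cells under that limit. It was then 4.43%, 14.1%, 10.4% and 22.2% in the same order of populations. With the Tnfsf4 limit dropped it was 4.16%, 13.6%, 10.3% and 22.1%. The CD301b criterion alone was met by 12.2%, 30.3%, 26.1% and 43.9% of kept cells.

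Tag-high cells were set against CD11b-high cells as a second denominator. Of both kinds together, the tag-high cells made up 70.7% in BFP+RFP+ (29 of 41), 73.2% in BFP-RFP+ (131 of 179), 52.3% in BFP+RFP- (208 of 398) and 64.0% in BFP-RFP- (222 of 347). BFP+RFP- cells were lowest here, whereas BFP+RFP+ cells were lowest among all kept cells. Within tag-high cells the CD301b tag had a median of 67 UMIs in BFP+RFP+, 105 in BFP-RFP+, 88.5 in BFP+RFP- and 113.5 in BFP-RFP- cells.

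**Figure D2:**
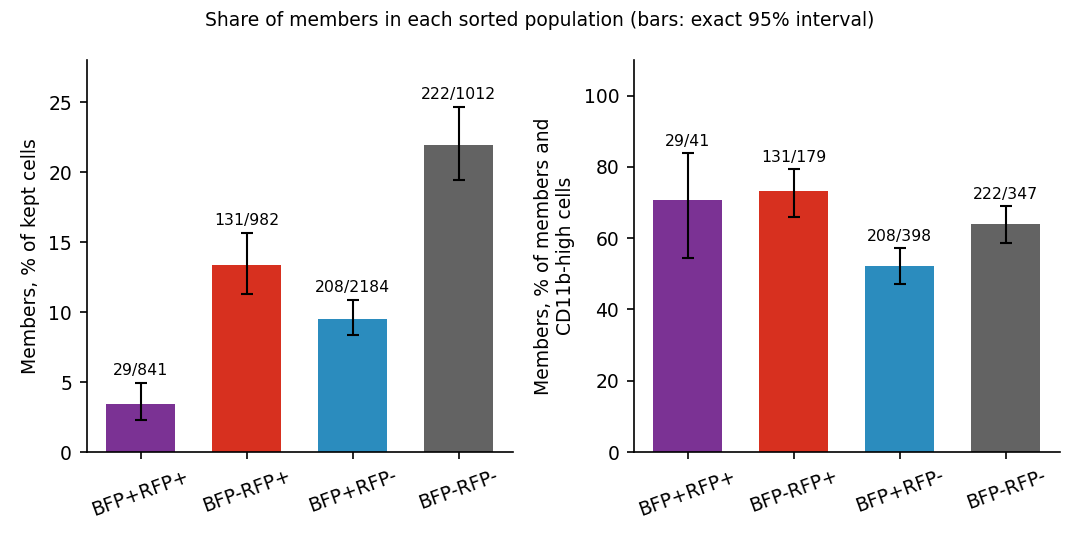
Tag-high cells (members) in each sorted population, as a percent of kept cells on the left and of tag-high plus CD11b-high cells on the right, with counts above the bars and exact 95% intervals. On the left the BFP-RFP- population is highest at 21.9% and BFP+RFP+ lowest at 3.45%.

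Levels below are UMIs summed over the cells of a group per 1000000 mRNA UMIs (CPM), and differences are log2 ratios of CPM with 0.5 UMI added to each sum. A gene was counted as higher or lower where the log2 ratio passed 1 in size, among genes with 100 or more UMIs over both groups. This fold is a fixed size and not a test.

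The 5 marker genes that came with the definition of these cells were all higher than in the other kept cells. They were proposed with these data in view, so their values are a description. Plppr4 (ENSMUSG00000044667), a membrane protein of the lipid phosphatase family best known from synapses, stood at 11.0 CPM in BFP+RFP+, 26.5 in BFP-RFP+, 19.7 in BFP+RFP- and 34.6 in BFP-RFP- tag-high cells. The other kept cells held 3.44, 11.8, 7.52 and 16.0 CPM in the same order. Each population's tag-high cells exceeded its own other cells, but the BFP+RFP+ value rests on 5 UMIs and the ranges of both kinds of cells overlapped. The summed log2 difference was 1.54 (1.31 to 1.76).

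Frmd5 (ENSMUSG00000027238), which encodes a FERM domain protein of cell contacts, had most UMIs of the 5. It stood at 101, 363, 225 and 424 CPM in tag-high cells, against 63.8, 150, 111 and 154 CPM in the other kept cells. The BFP+RFP+ tag-high cells, with 101 CPM, lay below the other cells of 3 populations. The summed log2 difference was 1.46 (1.40 to 1.52), while within populations it ran from 0.68 to 1.46. The summed value lies at the top of that range, since BFP-RFP- cells, which held most Frmd5, made up 37.6% of tag-high but 20.2% of kept cells.

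Psd3 (ENSMUSG00000030465) encodes an exchange factor for the small GTPase ARF6. Its lowest tag-high value was 116 CPM in BFP+RFP+ cells and its highest value in other cells was 88.5 CPM in BFP-RFP- cells. The remaining tag-high values were 165, 189 and 230 CPM, and the log2 difference was 1.33 (1.25 to 1.40). Msrb3 (ENSMUSG00000051236), a reductase that repairs oxidised methionine, stood at 81.3, 135, 114 and 114 CPM against 42.0, 71.4, 50.3 and 66.8. Its log2 difference was 1.08 (0.98 to 1.18). Ctxnd1 (ENSMUSG00000097789), a small membrane protein with a cortexin domain, held 6.59, 40.3, 24.5 and 33.6 CPM against 5.48, 16.8, 10.8 and 16.4. In BFP+RFP+ cells that was 3 UMIs, too few to place Ctxnd1 apart from the other cells.

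Most tag-high cells showed UMIs of some markers and not of others, and a missing UMI does not show that a cell lacks the mRNA. At 5000 UMIs per cell, a Frmd5 UMI was found in 51.5% of tag-high cells, 20.9% of other kept cells and 9.76% of T barcodes. For Psd3 these shares were 42.0%, 19.0% and 7.32%, and for Msrb3 29.6%, 16.9% and 5.37%. Plppr4 was found in 9.37%, 2.86% and 0.976% and Ctxnd1 in 9.01%, 4.82% and 1.95%. Unthinned, 63.1%, 57.5%, 52.5%, 19.0% and 21.5% of tag-high cells held Frmd5, Psd3, Msrb3, Plppr4 and Ctxnd1. Of 555 thinned tag-high cells, 148 showed none of the 5 markers and 17.8% showed 3 or more (14.7% to 21.3%). The share with 3 or more was 4.40% in the other kept cells, 6.79% in tag-low and 4.68% in CD11b-high cells. By population it was 3.70% in BFP+RFP+, 16.0% in BFP-RFP+, 14.6% in BFP+RFP- and 23.7% in BFP-RFP- tag-high cells. Most tag-high cells thus showed 2 or fewer of the markers at this depth.

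Against all other kept cells, 86 of 10888 genes were higher in tag-high cells (0.79%) and 637 lower (5.85%). Within each of the 4 populations separately, 17 genes were past the fold upward (0.156%) and 88 downward (0.808%). With T, NK, B and macrophage barcodes left out of the other kept cells, 138 genes were higher and 340 lower. Tag-high cells with T, NK or B genes stayed in at that step, among them 34 cells with 3 or more T or NK UMIs. With T, NK and B barcodes left out on both sides, a step chosen after the data were seen, 82 genes were higher and 521 lower. All 5 markers are among the 86, and nothing is read from that, since they were chosen on this contrast. Genes named from here on were taken by size of the log2 ratio among well-counted genes with the same sign in all 4 populations. That choice favours genes whose groups do not overlap, and how many of all genes do not overlap was not counted.

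The higher genes were of several kinds. Cavin1, a coat protein of caveolae, stood at 48.3, 65.3, 55.3 and 58.3 CPM in the tag-high cells of the 4 populations. In the other kept cells Cavin1 stood at 14.1, 12.9, 21.9 and 20.4 CPM. Its log2 difference was 1.66 (1.51 to 1.81), from 1.34 to 2.34 within populations. Slamf1, the self-binding costimulatory receptor CD150, stood at 125, 181, 178 and 259 CPM against 33.6, 63.0, 80.7 and 87.6, with a log2 difference of 1.56 (1.48 to 1.64). A Slamf1 UMI was found in 50.6% of thinned tag-high cells, 21.4% of other kept cells and 19.0% of T barcodes, and T cells also express it.

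Adgre1, which encodes the myeloid receptor F4/80, held 17.6, 28.6, 18.4 and 47.1 CPM in tag-high cells and 4.83, 14.1, 7.83 and 19.9 CPM in the others, with overlap and a log2 difference of 1.56. Adgre1 is also on the list of macrophage and monocyte genes, of which 3 of 16 were higher in sign and 13 lower, with a median of -2.37. Itga1, the collagen-binding integrin alpha 1 chain, differed by 1.52 and Plxna1, a semaphorin receptor, by 1.41, the latter on 95 UMIs. Shisa9, an auxiliary protein of glutamate receptors, stood at 43.0 against 15.3 CPM. Pde5a, the cyclic GMP phosphodiesterase, differed by 1.26, the nuclear lamina gene Lmna by 1.18, the membrane-bending adaptor Mtss1 by 1.17 and the magnesium transporter Slc41a2 by 1.16. Xlr stood at 17.3 against 6.05 CPM (1.52).

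The lower genes were also of several kinds, and most were scarce in tag-high cells. Nrgn, the calmodulin-binding protein neurogranin, gave 1, 11, 2 and 5 UMIs in the tag-high cells of the 4 populations, a summed 2.21 CPM. The other kept cells held 47.4, 26.3, 11.5 and 4.90 CPM of Nrgn, and the summed log2 difference was -3.15 (-3.92 to -2.54). Dll4, a Notch ligand, held 8.79, 5.62, 2.22 and 2.63 CPM against 44.0, 40.4, 18.7 and 13.3, for a log2 difference of -2.92. Cd24a, a surface glycoprotein, held 6.59, 13.8, 3.50 and 4.94 CPM against 57.2, 39.7, 26.3 and 29.7 (-2.43). The tag-high levels rest on 30 UMIs of Dll4 and 56 of Cd24a over the 4 populations, too few to place single populations apart.

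Thy1, a surface protein of T cells also found on some dendritic cells, held 85.7, 25.5, 6.04 and 6.58 CPM in tag-high cells and 120, 119, 43.1 and 31.1 CPM in the others. The log2 difference of Thy1 was -0.47 in BFP+RFP+ cells and -2.21 to -2.80 elsewhere. Of the 128 Thy1 UMIs in tag-high cells 5 cells held 55.5%, and the BFP+RFP+ level rests on 39 UMIs. Btla, an inhibitory receptor, differed by -2.13 and Scin, an actin-severing protein, by -2.43. B3gnt5, a glycolipid enzyme, differed by -2.65, the actin-binding protein drebrin (Dbn1) by -2.58, the glutamate receptor chain Grin2c by -2.49 and Pard3b, a polarity protein, by -2.26. Colq, Pglyrp1 and Mdk differed by -2.21, -2.18 and -2.16, each on fewer than 30 UMIs in tag-high cells. Within populations Colq ran from -2.86 to -0.55. Cd8a differed by -2.15, a gene whose protein tag was limited by the definition. Prkcq, protein kinase C theta of T cells, differed by -2.59 on 20 UMIs in tag-high cells, of which 5 cells held 75%. It differed by 0.90 once other kept cells that held T, NK, B or macrophage genes were left out. Tag-high cells with T, NK or B genes stayed in at that step, which by itself raises the ratio of a T cell gene.

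**Figure D3:**
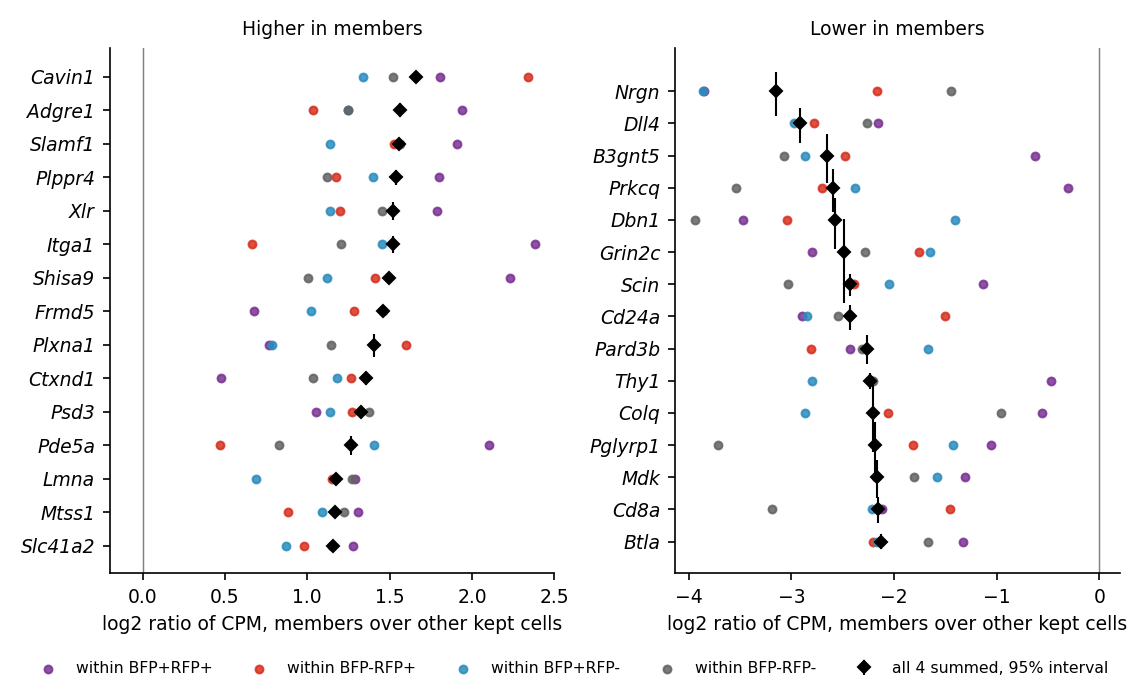
Log2 ratio of CPM of tag-high cells (members) over other kept cells for the 15 named genes per direction. Coloured points are the 4 populations taken separately, and black diamonds the sums with exact 95% intervals. All points of a gene lie on 1 side of 0 because the genes were chosen so, and several, such as Thy1 and Prkcq, are nearest to 0 in the BFP+RFP+ population.

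Genes of T, NK and B cells and of macrophages were mostly lower in tag-high than in other kept cells. Their part in the results was not tested beyond the gene counts and levels given with such barcodes left out. Of 20 T and NK genes with enough UMIs, 0 were higher than in other kept cells and 20 were lower, with a median log2 difference of -0.94 against -0.04 for all genes. The 22 listed T and NK genes summed to 472 CPM in tag-high, 749 in other kept, 840 in tag-low and 423 in CD11b-high cells, and Gzma was at 0 in tag-high cells. The B cell genes summed to 148, 338, 799 and 86 CPM in the same order, and none was at 0. The macrophage and monocyte genes summed to 139 CPM in tag-high, 425 in other kept, 147 in tag-low and 300.97 in CD11b-high cells, with Fcgr1, Pf4 and F13a1 at 0 in tag-high cells. The complement limit of the definition takes macrophage-like cells out of the tag-high, tag-low and CD11b-high cells but leaves them in the other kept cells. At least 3 T or NK UMIs were found in 5.76% of tag-high, 8.38% of other kept and 8.26% of tag-low cells, and 3 or more B cell UMIs in 0.678%, 3.21% and 5.19%. Xcr1 and Tlr3 were at 0 among 13 genes of type 1 conventional dendritic cells, which summed to 509 CPM in tag-high and 556 CPM in other kept cells. Of 11 Langerhans cell genes 4 were at 0, Cd207 among them, while 4 of the 5 with enough UMIs were higher in sign, and the list summed to 621 against 574 CPM. Of granulocyte and mast cell genes 12 of 18 were at 0.

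Genes of the CD11b-positive type 2 class went different ways by comparison. Against other kept cells, 8 of 20 were higher in sign and 12 lower, with a median of -0.36. Against tag-low cells 9 of 13 were higher in sign, 3 of them past the fold, with a median of 0.23, and against CD11b-high cells 2 of 14, with a median of -0.59. The transcription factor Irf4, needed for migration of type 2 dendritic cells, stood at 136 CPM in tag-high and 110 CPM in other kept cells, a difference of 0.31 (0.22 to 0.40). Klf4, a factor linked to the dendritic cells that promote type 2 help, stood at 37.9 and 37.4 CPM. Sirpa stood at 83.5, 126, 84.2 and 113 CPM in the tag-high cells of the 4 populations and at 48.6, 106, 79.3 and 124 CPM in the others, and the groups overlapped. The lysozyme gene Lyz2 stood at 24.3 CPM in tag-high and 199.3 CPM in other kept cells, which are not under the complement limit, but at 17.2 CPM in tag-low cells, which are (0.50).

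The list of migratory dendritic cell genes leaned upward, with no gene higher past the fold. Of 24 genes 16 were higher in sign, with a median of 0.22. Ccr7 stood at 1765 CPM in tag-high and 1383 CPM in other kept cells, with log2 differences from 0.29 to 0.40 in the 4 populations. The membrane protein Tmem123 differed by 0.55 and Marcks, an actin-binding substrate of protein kinase C, by 0.46. Of the 8 lower in sign, Cd200, an inhibitory surface ligand, was past the fold at -1.02.

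Among the chemokines with 100 or more UMIs in tag-high cells, Ccl22 had the largest difference. Ccl22, which attracts CCR4-bearing T cells, stood at 2320, 2954, 3058 and 2965 CPM in the tag-high cells of the 4 populations. In the other kept cells Ccl22 stood at 1878, 1682, 1954 and 1608 CPM, and the difference was 0.69 (0.68 to 0.71). Ccl17, the second CCR4 ligand, stood at 398, 740, 491 and 387 CPM against 251, 430, 390 and 455 CPM. Its sign was thus not shared: BFP-RFP- tag-high cells held less Ccl17 than the other cells of that population, and the summed difference of 0.41 hides that. Of 18 chemokines 9 were higher in sign and 9 lower, 7 of them past the fold on 56 or fewer UMIs each in tag-high cells. Ccl3 and Ccl4 had larger ratios (2.32 and 1.10) on 49 and 87 UMIs in tag-high cells.

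Cytokine genes showed no common direction, with 6 of 16 higher in sign and a median of -0.13. Il18 stood at 26.4, 40.8, 40.4 and 58.6 CPM in tag-high cells and 14.8, 31.8, 21.1 and 31.6 CPM in the others, a difference of 0.96 (0.80 to 1.12). Il12b, the p40 chain shared by IL-12 and IL-23, differed by 0.57 in sum but by -1.37 in BFP+RFP+ (11 UMIs) and 1.20 in BFP-RFP+ cells. Il1b stood at 268, 270, 99.5 and 240 CPM against 71.7, 170, 143 and 232 CPM, lower than the other cells in BFP+RFP- alone. Of the UMIs in tag-high cells, 5 cells held 38.0% for Il12b and 27.0% for Il1b, so these levels rest partly on few cells.

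Receptors for the cytokines that MC903-treated skin is known to induce differed from the other cells by less than the fold, and not in 1 direction. Crlf2, the TSLP receptor chain, held 14.7 CPM in tag-high and 20.1 CPM in other kept cells, a difference of -0.45 (-0.73 to -0.19). Il4ra held 62.7 and 63.7 CPM, a difference of -0.02 (-0.15 to 0.11). Il13ra1, its partner in binding IL-13, held 57.0 and 40.7 CPM, a difference of 0.49 (0.34 to 0.62). The lists of TSLP and STAT5 response genes (7 of 22 higher in sign, median -0.07) and of IL-4 and IL-13 genes (9 of 22, median -0.04) lay at the median of all genes. Vdr, the vitamin D receptor to which MC903 binds, held 24.2, 11.2, 16.5 and 11.5 CPM in tag-high cells and 35.2, 29.4, 32.5 and 35.1 CPM in the others. The summed difference was -1.23 (-1.51 to -0.97), on 120 UMIs in tag-high cells.

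Antigen presentation genes leaned lower than in other kept cells. Of 14 MHC class II genes 2 were higher in sign and 12 lower, with a median of -0.38. Against tag-low cells 12 of 14 were lower in sign too, with a median of -0.21. Against CD11b-high cells 8 of 12 were higher in sign, with a median of 0.13. Relative to other kept cells the peptide-loading genes H2-DMb2 and H2-DMa differed by -0.76 and -0.70 and the class II regulator Ciita by -0.61, while Cd74 differed by -0.12 at 10730 CPM. Of 20 costimulation genes 6 were higher in sign and 14 lower, with a median of -0.37. Against tag-low cells the lean was the other way, with 11 of 19 higher in sign and a median of 0.17. Slamf1, Cd40 (0.42) and the Notch ligand Jag1 (0.37) were highest against other kept cells. In that comparison 6 genes of the list were lower past the fold, among them Dll4 and Icosl, the ligand of ICOS, at -1.21. Unc93b1, which carries Toll-like receptors to endosomes, differed by -1.18, and the interferon-induced gene Isg15 by -1.25.

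The list of neuronal and synaptic genes, which holds 3 of the markers, had no common direction against other kept cells. Of its 27 genes with enough UMIs, 12 were higher in sign and 15 lower, with a median of -0.23. Against CD11b-high cells 10 of 13 were higher in sign, with a median of 0.68. Against tag-low cells 14 of 23 were lower in sign, with a median of -0.46. Relative to other kept cells the tubulin gene Tubb2b was lower at 42.1 against 162 CPM (-1.94) and the glutamate receptor chain Gria3 differed by -1.13. Among genes of the markers' families, 20 with enough UMIs and the 5 markers included, 11 were higher in sign and 9 lower. The 5 past the fold upward were the markers themselves, and the 3 past it downward, Plppr1, Plpp2 and Cyth4, gave 2, 6 and 29 UMIs in tag-high cells. Msrb1 stood at -0.29, Psd4 at -0.16 and Cyth2 at -0.08.

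**Figure D4:**
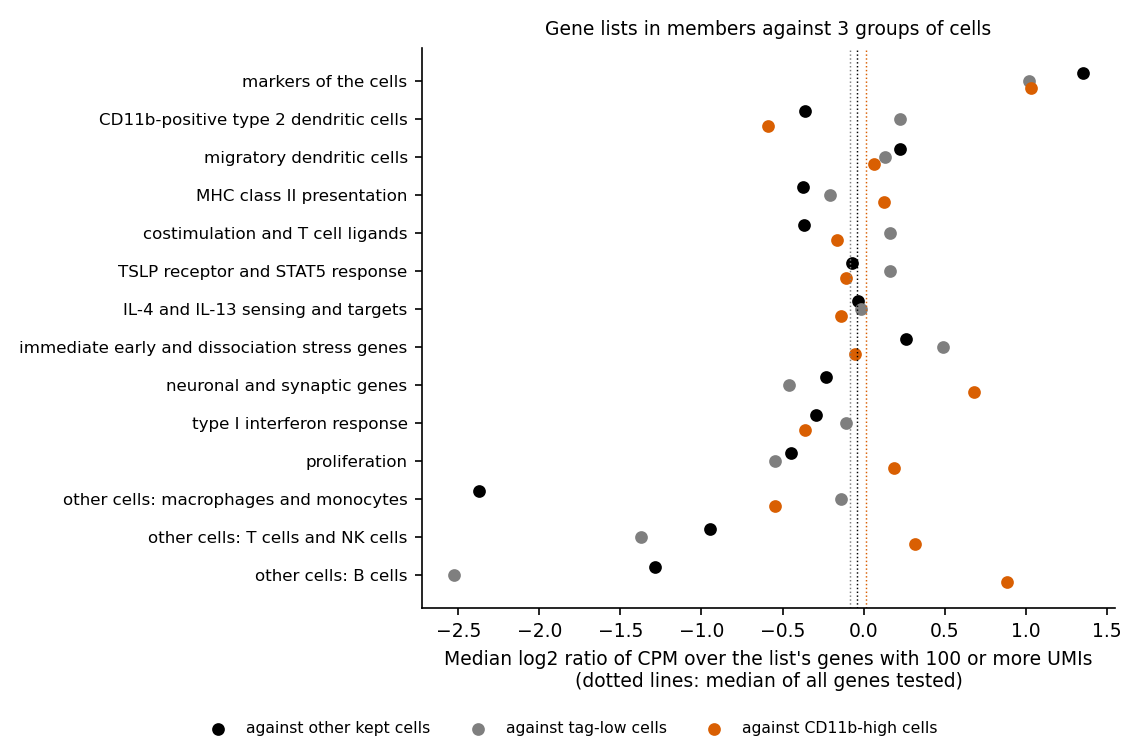
Median log2 ratio of CPM over each list's well-counted genes, for tag-high cells (members) against other kept cells in black, tag-low cells in grey and CD11b-high cells in orange. The marker list stands above 1 in the 3 comparisons, with medians of 1.35, 1.02 and 1.03. The list farthest below the dotted medians of all genes is that of B cell genes against tag-low cells, at -2.53.

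The tag-low cells differ from the tag-high cells by the CD301b criterion alone, so this comparison follows the tag most closely. Of 9612 genes 50 were higher in tag-high cells (0.52%) and 347 lower (3.61%). The lower count was 158 when barcodes with 3 or more T, NK or B cell UMIs were left out on both sides, a step chosen after the data were seen, while the higher count was then 49. Plppr4 led the genes named as higher by the rule, at 26.1 against 10.5 CPM, or 1.31 (1.04 to 1.57). Ctxnd1 differed by 1.04, Msrb3 by 1.02, Frmd5 by 0.73 and Psd3 by 0.72.

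The genes highest over tag-low cells were of several kinds. Txnrd1, a thioredoxin reductase, stood at 92.9 against 40.5 CPM (1.20) and Slamf1 at 205 against 98.2 CPM (1.06). Tcea3, a transcription elongation factor, differed by 1.15 and Ramp3, a partner of peptide hormone receptors, by 1.03. Sirpa, whose protein CD172a was also higher by tag, stood at 104 against 50.8 CPM, or 1.03 (0.90 to 1.16), and was higher within all 4 populations. Il1b differed by 1.37, Ccl17 by 0.88, Ccl22 by 0.81 and Cd40 by 0.74. Of 21 immediate early and stress genes, which also move with the handling of cells, 19 were higher in sign, with a median of 0.49 and Egr1 at 1.39. Of the UMIs in tag-high cells, 5 cells held 27.0% for Il1b and 32.5% for Egr1.

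Some named genes lower than in tag-low cells differed less once barcodes with lymphocyte mRNA were left out on both sides. Why they did was not tested. Arhgap15, a regulator of Rac, differed by -2.11, and by -0.77 without those barcodes. Ablim1 went from -1.94 to 0.17, Gimap6 from -1.85 to 0.08, Satb1 from -1.64 to -0.74 and Nedd9 from -1.59 to -0.08. By contrast, the endocytic adaptor Ston2 went from -1.61 to -1.66, the microtubule linker Hook1 from -1.53 to -1.49 and Tubb2b from -1.49 to -1.57. Ston2 stood at 16.4 CPM in tag-high and 50.1 CPM in tag-low cells.

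The CD11b-high cells carry the CD301b tag too and differ by the CD11b criterion. Of 8047 genes 89 were higher in tag-high cells (1.11%) and 238 lower (2.96%), so 27.2% of those past the fold were higher. With each tag count scaled by the cell's hashtag total before the limits were applied, the counts were 176 and 249, or 41.4% higher. Psd3 stood at 194 against 56.9 CPM (1.77) and Frmd5 at 320 against 106 CPM (1.59). Msrb3 differed by 1.03, Plppr4 by 0.71 and Ctxnd1 by 0.68. At matched depth Ctxnd1 was found in 9.01% of tag-high and 9.92% of CD11b-high cells.

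Other genes higher over CD11b-high cells included Sned1, a matrix protein, at 130 against 33.6 CPM (1.94), and Cavin1 at 58.3 against 16.0 CPM (1.86). The transcription factor Myb differed by 1.67, the growth factor receptor regulator Lrig1 by 1.38, the cell-cycle inhibitor gene Cdkn2a by 1.34, Spats2 by 1.45 and Slamf1 by 1.19. Irf4 was higher by 0.82, Il18 by 0.92 and Cd80, a costimulatory ligand, by 0.80. Palld, an actin-organising protein, was lower at 23.4 against 101 CPM (-2.10), and Klrk1, which encodes the receptor NKG2D, at 15.7 against 54.0 CPM (-1.78). Cd1d1, which presents lipids to NKT cells, was lower by -1.55, Glrx by -1.39, Slfn2 by -1.38, the G protein regulator Rgs2 by -1.37, Abcg3 by -1.66 and Gnl2 by -1.40. Vdr stood at 14.0 against 59.4 CPM (-2.09) and Isg15 at 18.7 against 103 CPM (-2.45). All 9 interferon-response genes tested were lower in sign, with a median of -0.36. Il1b (-0.88), Ccl17 (-0.63) and Sirpa (-0.71) were lower too, and Ccl22 was higher (0.61). Median mRNA depth was 18752 UMIs in CD11b-high cells, against 13900, and was not matched in these sums.

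Within the tag-high cells the CD301b tag and the mRNA did not move in step for all markers. Cells with 50 to 59 CD301b UMIs (n = 107) held 7.52 CPM of Plppr4, fewer than tag-low cells with 40 to 49 UMIs (10.4 CPM, n = 217). Cells with 60 to 99, 100 to under 200 and 200 or more UMIs (n = 192, 148 and 143) held 28.6, 33.2 and 28.0 CPM of Plppr4. Frmd5 showed the same step, with 249 CPM at 40 to 49, 200 CPM at 50 to 59 and 327, 344 and 368 CPM above that. Psd3 was graded from lower tag counts on, with 86.3 CPM below 25 UMIs, 145 at 40 to 49, 151 at 50 to 59 and 210 at 60 to 99. Ccl22 was higher in each successive group, from 1470 CPM below 25 UMIs to 3478 CPM at 200 or more. Mgl2 stood at 3.42 CPM at 50 to 59 and 63.4 CPM at 200 or more, a level that rests on few cells as described above. Median mRNA UMIs per cell went from 10781 in the lowest group to 14682 in the highest.

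**Figure D5:**
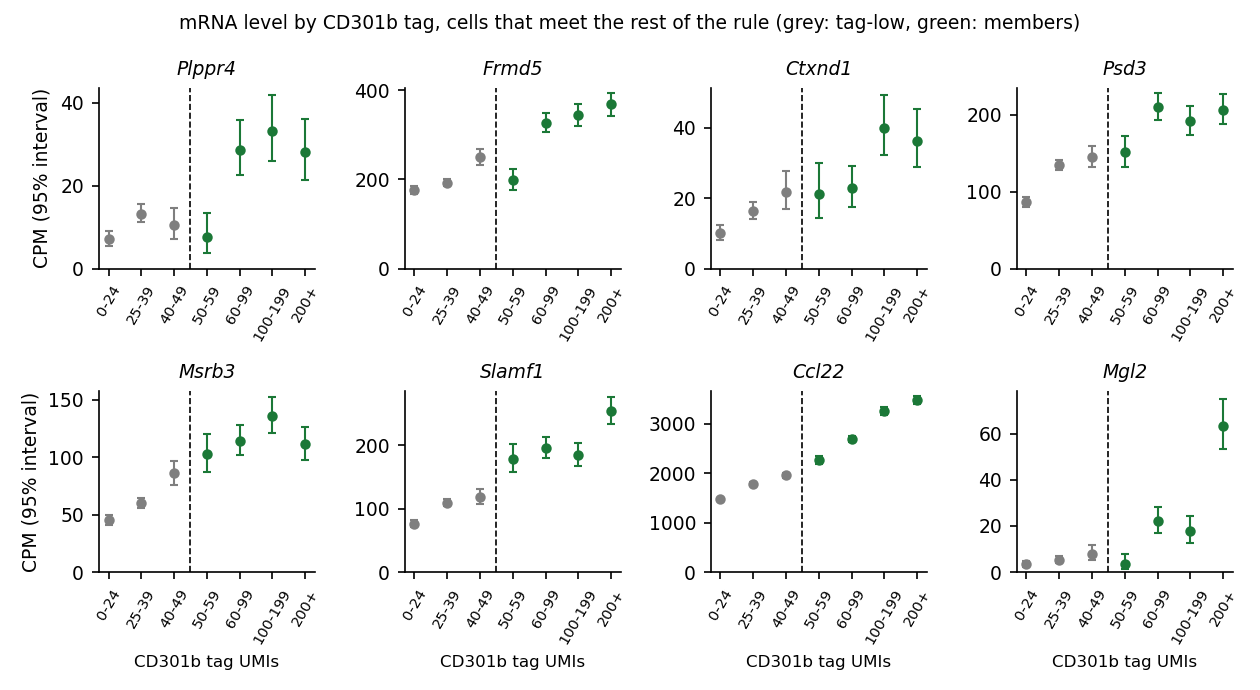
CPM of the 5 markers, Slamf1, Ccl22 and Mgl2 by CD301b tag UMIs in cells that met all other criteria, with exact 95% intervals. Grey points are tag-low cells and green points tag-high cells, split by the dashed line at 50 UMIs. Plppr4 and Frmd5 are higher from 60 UMIs on, and Ccl22 is higher in each group of cells with more tag.

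The CD11b tag split the tag-high cells further. In cells with under 50, 50 to 99 and 100 to under 150 CD11b UMIs (n = 404, 119 and 67), Frmd5 stood at 348, 328 and 155 CPM. In cells past the limit it stood at 158 CPM at 150 to under 300 UMIs and 62.5 CPM at 300 or more. Psd3 went through 225, 150 and 103 CPM to 76.2 and 40.5 CPM, and Slamf1 through 231, 169 and 121 to 108 and 74.7 CPM. Vdr went the other way, with 10.1, 15.9 and 31.3 CPM and then 45.0 and 71.5 CPM, and Il1b was also lowest under 50 UMIs and highest at 300 or more, with 148.6, 270 and 331 CPM and then 261 and 447 CPM. The tag-high cells near the CD11b limit thus held levels close to those just past it.

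The CD172a tag, which the definition did not use, was split into 3 groups at 148 and 240 UMIs (n = 204, 189 and 197). Frmd5 stood at 211, 359 and 379 CPM, Plppr4 at 11.9, 18.7 and 43.5 CPM and Psd3 at 130, 183 and 256 CPM. Ccl22 stood at 1753, 2816 and 4070 CPM, Ccl17 at 282, 464 and 724 CPM and Il1b at 85.4, 163 and 315 CPM. Egr1, an immediate early gene with 32.5% of its tag-high UMIs in 5 cells, stood at 26.4, 75.2 and 162 CPM. Each of these genes was lowest in the group with least tag and highest in the group with most. Median mRNA UMIs were 12668, 12891 and 16181 and median hashtag UMIs 1014, 1241 and 1611, and the part of depth in these levels was not tested.

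Between populations within the tag-high cells, each reporter was compared in both states of the other, over 6510 genes with 100 or more UMIs in tag-high cells. In BFP+ against BFP- cells 16 genes were higher past the fold in both RFP states (0.246%) and 14 lower (0.215%). In RFP+ against RFP- cells 19 were higher (0.292%) and 13 lower (0.2%), each in the BFP+ as well as the BFP- state. Of the genes taken by the naming rule for these comparisons, Golga3 alone was past the fold in both states. The other counted genes thus missed a limit of that rule, on UMIs held by few cells or on the kind of gene. No reporter difference is read from these counts. The BFP+RFP+ population has 29 tag-high cells, so its levels rest on few cells. Tnfsf4 itself, held under 5 UMIs a cell, stood at 54.9, 11.2, 35.3 and 13.2 CPM in the 4 populations. UMIs of the red reporter numbered 4, 32, 2 and 1 and those of BFP 3, 9, 26 and 8, so the reporter mRNAs give little check on the sort in these cells.

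Class II genes leaned higher in the BFP+ tag-high cells, with 1 of 12 past the fold in each RFP state. H2-Oa, a chain of the regulator of peptide loading, stood at 110 CPM in both BFP+RFP+ and BFP+RFP- cells, against 57.2 and 48.0 CPM in BFP-RFP+ and BFP-RFP- cells. The log2 differences were 0.95 (0.43 to 1.44) and 1.20 (0.92 to 1.49). H2-DMb2 stood at 244 and 161 CPM in BFP+ and 142 and 103 CPM in BFP- cells, with differences of 0.78 and 0.64. Of 12 class II genes 9 were higher in sign in the RFP+ and 10 in the RFP- state, with medians of 0.53 and 0.44. The other kept cells, which carry more Tnfsf4, had more of both genes in BFP+ cells within each RFP state: H2-Oa stood there at 166 and 102 CPM in BFP+ and 84.1 and 57.7 CPM in BFP- cells. Gngt2, a G protein gamma chain, differed by 0.97 and 0.74, the Golgi protein gene Golga3 by 1.19 and 1.07 and Orc6 by 0.72 and 0.65, with the first interval of Orc6 spanning 0.

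The genes lower in BFP+ cells included a marker. Frmd5, at 101 and 225 CPM in BFP+ and 363 and 424 CPM in BFP- cells, differed by -1.83 (-2.31 to -1.42) in the RFP+ and -0.91 (-1.05 to -0.78) in the RFP- state. All 5 markers were lower in sign in BFP+RFP- than in BFP-RFP- cells, with a median of -0.45. Il13ra1 differed by -0.91 and -0.78. Efna5, a ligand of Eph receptors, stood at 281 and 346 CPM in BFP+ and 513 and 706 CPM in BFP- cells, with differences of -0.86 and -1.03. Zswim8 differed by -1.06 and -0.96, on 7 UMIs in BFP+RFP+ cells, and Rimoc1 by -0.92 in the RFP- state, with 5 UMIs in BFP+RFP+ cells.

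By the RFP reporter, Mapk6, an atypical MAP kinase, led the genes named as higher in RFP+ cells, at 48.3 and 42.9 CPM against 21.9 and 25.7 CPM, with differences of 1.16 (0.38 to 1.85) in BFP+ and 0.74 (0.28 to 1.20) in BFP- cells. It was past the fold in the BFP+ state alone. Denr differed by 0.78 and 0.66, and its first interval, from -0.08 to 1.51, spanned 0. Zfp992, the first gene named as lower in RFP+ cells at -1.06 and -0.97, rested on 5 UMIs in the BFP+RFP+ population. Class II genes leaned upward in RFP+ cells, with 10 of 12 higher in sign in the BFP+ and 11 of 12 in the BFP- state and medians of 0.17 and 0.20. Siglech, whose regulatory sequence drives the Cre of these mice, gave 13 UMIs in 2 tag-high cells.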

How the data were processed

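Antibody tags, hashtags and mRNA were measured in 1 pool of 4 sorted populations, from 1 capture and 3 libraries. The deposited matrix holds raw UMI counts made by the authors with Cell Ranger 7.0.0, per the file headers. The builds were GRCm39 and mm39, per the submitters' processing notes. Cells were kept and chosen by the limits given above. Doublets between populations were left out by the hashtag share, and no doublet caller was run. UMIs were summed over cells (Python 3.11.15, numpy 2.4.6, scipy 1.17.1, pandas 2.3.3), and the sums were checked on simulated data. TMM factors came from edgeR 4.0.16 as an alternative. The members, markers and 39 gene lists were chosen with earlier results of these data known. Named genes had 300 or more UMIs over both groups, at most 10% of UMIs in 5 cells and the same sign in all 4 populations, and the 15 largest ratios per direction were taken (8 for each single-criterion comparison). Between populations, the 5 per direction with the largest smaller ratio were taken. The naming passed over antigen receptor, ribosomal and mitochondrial genes, gene models without a symbol, and genes used by the sort or the limits. Of each list, the 3 highest and 3 lowest genes with 100 or more UMIs could be named, along with markers, genes of tagged proteins and genes with a known role in CD301b-positive cells. Ccl3, Ccl4, Cd209d, Siglech, Plppr1, Plpp2 and Cyth4 were named after their values were seen, as were the genes followed by tag group. A few genes that this rule names are not reported here.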

Additional observations from a re-analysis of the deposited data

Results flagged for a closer look

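Among tag-high cells, 2 chemokine genes differed in opposite directions between the states of a reporter, out of 73 genes looked at. None of these differences was tested, since each population is 1 sample. Ccl17 in BFP+ against BFP- cells had a log2 ratio of -0.89 (-1.13 to -0.67) among RFP+ cells, from 181 and 1450 UMIs, and of 0.34 (0.23 to 0.45) among RFP- cells, from 1544 and 1177 UMIs. The same 4 levels set RFP+ against RFP- cells at -0.30 (-0.53 to -0.08) in the BFP+ and 0.93 (0.82 to 1.05) in the BFP- state. The BFP-RFP+ tag-high cells, at 740 CPM, were the population with most Ccl17. In tag-high cells 5 cells held 23.0% of the Ccl17 UMIs, and 334 came from a single cell. Ccl22 in BFP+ against BFP- cells had a log2 ratio of -0.35 (-0.44 to -0.25) among RFP+ and 0.04 (0.00 to 0.09) among RFP- cells.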

How the results depend on the processing

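No paired analysis was possible because there is only 1 sample of each population. Of the alternatives to the shares and gene counts, 78 values stayed close to those reported and 39 moved. With a CD301b limit of 100 UMIs the share of tag-high cells was 5.80% overall and 1.31%, 7.03%, 4.08% and 12.1% in the 4 populations, and 58 genes were higher than in CD11b-high cells. With CD11b below 75 it was 9.504% overall and 11.0%, 7.55% and 17.8% in the latter 3. With tags scaled by hashtag UMIs it was 15.3% overall and 5.11%, 18.3%, 13.4% and 25%, and 176 genes were higher than in CD11b-high cells. The order of the 4 populations was the same under these 3 limits. With a gene minimum of 30 UMIs, 193 genes were higher and 1030 lower than in other kept cells, 97 and 684 than in tag-low cells, and 240 and 447 than in CD11b-high cells. With no minimum these were 1949 and 1560, 925 and 1654, and 1678 and 1709. A pseudocount of 5 UMIs left 390 genes lower than in other kept cells, and 9 lower in BFP+ and 2 lower in RFP+ tag-high cells. Against other kept cells, 275 genes were higher and 410 lower within BFP+RFP+, 42 higher within BFP-RFP+, and 44 higher and 401 lower within BFP-RFP-. Without T, NK, B and macrophage barcodes among the other kept cells, 138 were higher and 340 lower. Prkcq then reversed to 0.90 and the B cell list's median to 2.63, and that median was 0.10 with scaled tags. Tag-high cells with T, NK or B genes stayed in, which by itself raises the ratios of lymphocyte genes. Without T, NK and B barcodes on both sides, an alternative chosen after seeing the data, 82 genes were higher and 521 lower than in other kept cells. In that alternative 158 genes were lower than in tag-low cells, and Ablim1 and Gimap6 reversed to 0.17 and 0.081. The cause of these shifts was not tested beyond what each alternative changes. Of the 30 genes named against other kept cells, 366 values lay within the reported interval, 113 outside with the same sign, and 1 reversed. The 29 BFP+RFP+ tag-high cells limit every value for that population.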

Other observations

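Some gene groups outside the comparisons above also differed. Of 20 proliferation genes 3 were higher in sign in tag-high than in other kept cells and 17 lower, with a median of -0.45 against -0.04 for all genes. Of 22 genes linked to tolerance 3 were higher in sign and 19 lower, with a median of -0.41, but against tag-low cells 11 of 17 were higher in sign, with a median of 0.06. Slc2a3, the glucose transporter GLUT3, stood at 31.1 CPM in tag-high and 9.83 CPM in other kept cells, a log2 difference of 1.66. Despite the size of this ratio, Slc2a3 was not among the genes taken by the naming rule. It thus missed the rule's limit on UMIs held by few cells, or its sign was not shared by all populations. The summed difference of Slc2a3 is therefore less secure than those of the named genes. Of 22 glycolysis and hypoxia genes, 6 were higher in sign and 16 lower. Cd81, a tetraspanin, stood at 119 and 63.8 CPM (0.89). These values are a description of 1 capture.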
